A study of Mus musculus with 6 samples.

Results

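The potassium and pacemaker channel genes were examined in cardiomyocytes (CMs) that lack *Cpt1b*, the muscle isoform of carnitine palmitoyltransferase, which admits long-chain fatty acids to mitochondria for oxidation. Members were the protein-coding genes of the deposited table whose symbol begins with Kcn, or is Hcn followed by a digit. This gave 51 of 16448 listed genes, of which 31 reached 10 in 3 or more samples and were tested among 11364 genes that did so. RNA-seq was done on CMs of adult C57BL/6 mice aged 8 to 12 weeks, with 3 samples of Cpt1bcKO mice (floxed *Cpt1b* alleles deleted by αMHC-Cre) and 3 of CtrlCre mice, which carry the same αMHC-Cre with wild-type *Cpt1b*. The driver acts in CMs and inactivates the gene from embryonic stages on, so the values are those of long-standing loss. The study describes the replicates of this comparison as mice, although the labels do not tie samples to animals. Because these are bulk samples, fewer cells of a type and less RNA per cell cannot be told apart.

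Potassium channels let K+ leave the cell and so end the cardiac action potential and hold the resting potential. Voltage-gated channels carry the transient outward and delayed rectifier currents of repolarization, inward rectifiers set the resting potential or open in response to acetylcholine or low ATP, and two-pore channels carry background currents. The Hcn genes encode cation channels that open on hyperpolarization, carry the pacemaker current and are low in mature ventricular muscle. Each value below is a normalized read count, that is, reads on a gene divided by a factor for the sample and rounded. Fold changes are Cpt1bcKO over CtrlCre on the log2(value + 1) scale, which compresses differences where values are low.

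The 6 libraries held an estimated 14900000 to 24500000 reads on genes (to 3 digits), with 1 read worth 0.68 to 1.29 units of the deposited values. The mitochondrial rRNA *mt-Rnr2* took 61.8% to 72.6% of the summed values in 5 libraries and 80.8% in Cpt1bcKO sample 3. *Xist* was at 957 and 1080 in the samples numbered 1 of both groups and at 23 to 78 in the other 4 (*Xist* is expressed by female cells). *Cpt1b* itself fell from 1861, 893 and 1443 in the CtrlCre samples to 211, 353 and 285 in the Cpt1bcKO samples (adjusted *P* = 0.00338 in limma with Benjamini–Hochberg adjustment over all genes tested). Ventricular CM markers were abundant in all libraries, with a sum over 6 genes of 194767 to 241035 in CtrlCre and 154129 to 186068 in Cpt1bcKO samples, which did not overlap. Of the 6, 5 were lower and 1 higher, and 0 had an unadjusted *P* value below 0.05 in limma. *Myh6* weighed most in the sum, at 104814 to 149899 in CtrlCre and 82872 to 93434 in Cpt1bcKO samples. *Mybpc3* went the other way, from 13714 to 15671 in CtrlCre to 15966 to 20791 in Cpt1bcKO samples. The summed atrial markers were 155 to 275 in CtrlCre and 498 to 730 in Cpt1bcKO samples, and 3 of 3 tested atrial markers were higher. Among them *Nppa*, which is also a stress gene of ventricular CMs, rose from 177, 93 and 144 to 683, 452 and 384 (limma adjusted *P* = 0.00917), whereas the atrial light chain *Myl7* was at 2 to 19 in all libraries. *Myl4*, at 16 to 102 in CtrlCre and 30 to 83 in Cpt1bcKO samples, and *Dkk3*, at 3 to 10 and 10 to 21, overlapped between the groups. Their unadjusted *P* values in limma were 0.563 and 0.153. The summed fibroblast markers were 383 to 533 in CtrlCre and 729 to 897 in Cpt1bcKO samples, and all 5 of the tested fibroblast markers were higher with an unadjusted *P* value below 0.05. Endothelial markers summed to 1125 in CtrlCre sample 1 and to 2035 to 2423 in the other 5 libraries, smooth muscle and pericyte markers to 1092 to 2248 with both extremes in CtrlCre samples, macrophage markers to 39 to 79, and glial and neuronal markers to 17 to 43. The pacemaker and conduction markers summed to 45 to 136, with *Shox2* and *Isl1* not among the listed genes. The part of these differences in the results below was not tested, apart from a scaling to the summed ventricular CM markers. The paper reports lower expression of contraction genes in *Cpt1b* mutant CMs. The scaling therefore cannot tell fewer CMs from lower marker expression in CMs.

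Among the 31 tested members, 21 were lower (67.7%, against 50.2% of all tested genes) and 10 higher in Cpt1bcKO CMs, and their log2 fold changes had a median of −0.29, but after scaling to the summed ventricular CM markers 15 were lower and 16 higher, with a median of 0.069. The median over all tested genes was −0.0013 on the deposited scale and 0.36 on the CM marker scale, so the members lay below it on both. On the deposited scale, 3 members had an adjusted *P* value below 0.05 in limma, all of them lower, with *Kcnj2* and *Kcnj3* among them. This is 9.68% of the tested members, where 1.57% of all tested genes were called in either direction, 0.906% lower and 0.66% higher. For 15 members, 10 lower and 5 higher, the unadjusted *P* value was below 0.05, which are 32.3% and 16.1% of the members against 7.22% and 6.66% of all tested genes. The groups did not overlap in 15 members (48.4%, against 18.7% of all tested genes), 11 of them lower and 4 higher, where 9.6% and 9.13% of all tested genes did so. On the CM marker scale 3 members had an adjusted *P* value below 0.05 in limma as well, but 1 was lower and 2 were higher, among 47 genes lower and 293 higher in all. The unadjusted *P* value was then below 0.05 for 7 members that were lower and 6 that were higher, where it was so for 1.69% of all tested genes lower and 22.5% higher. Of the 31 tested members, 2 reached 10 in samples of 1 group only, 1 in each direction, so the filter itself required their groups to differ. Among the other 29, 2 had an adjusted *P* value below 0.05, both lower, 9 lower and 4 higher members had an unadjusted one, and 10 lower and 3 higher members had separate groups. An exact permutation test with 3 samples in each group has a smallest *P* value of 0.10.

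**Figure D1:**
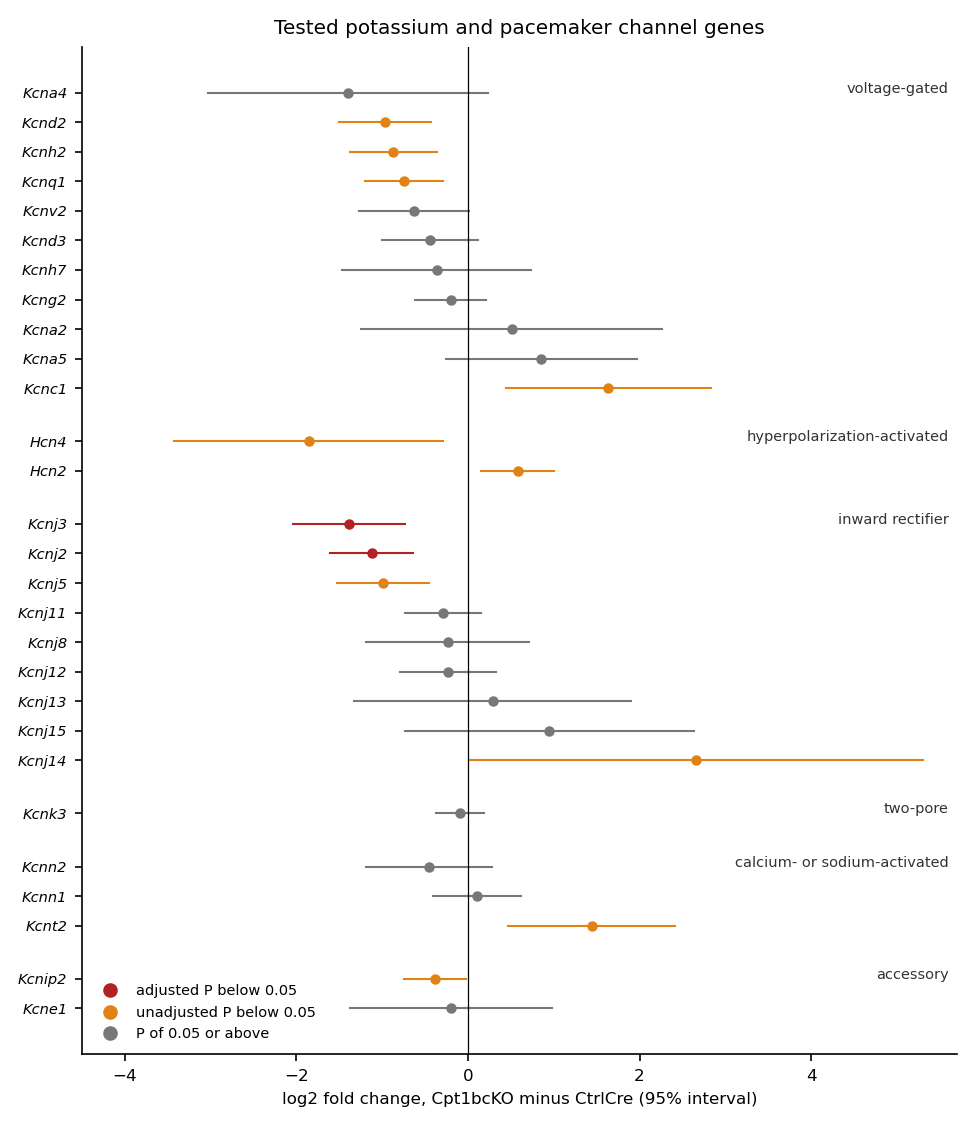
Log2 fold change (x axis, Cpt1bcKO minus CtrlCre) of 28 of the tested members, ordered within subfamilies on the y axis, with points for limma's estimate and lines for its 95% interval. *Kcnj3* and *Kcnj2* (red) have intervals wholly below 0, whereas *Kcnk3* has a narrow interval from −0.37 to 0.18.

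The promoters of 3 inward rectifiers with lower values in Cpt1bcKO CMs and of a pair of Hcn genes on opposite sides of 0 are shown to set the values beside the sequence. They run from 250 bases before to 50 bases after the annotated start (RefSeq, GRCm38.p6) and are read 5′ to 3′ on the strand of the gene. Capitals mark 4 motifs on either strand, which are TATAAA, the GC box GGGCGG, the nuclear receptor half-site AGGTCA and the GATA motif AGATAA. The positions are chr11:111065914-111066213 on the plus strand for *Kcnj2*, chr2:55435720-55436019 on the plus strand for *Kcnj3*, chr9:32344295-32344594 on the minus strand for *Kcnj5*, chr10:79716384-79716683 on the plus strand for *Hcn2* and chr9:58822699-58822998 on the plus strand for *Hcn4*.
Kcnj2: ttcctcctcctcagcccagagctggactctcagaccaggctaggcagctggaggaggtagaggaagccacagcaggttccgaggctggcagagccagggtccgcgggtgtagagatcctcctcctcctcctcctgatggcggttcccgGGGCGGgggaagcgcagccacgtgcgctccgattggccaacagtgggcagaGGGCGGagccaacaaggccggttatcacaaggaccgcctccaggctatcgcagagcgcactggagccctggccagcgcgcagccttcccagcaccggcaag
Kcnj3: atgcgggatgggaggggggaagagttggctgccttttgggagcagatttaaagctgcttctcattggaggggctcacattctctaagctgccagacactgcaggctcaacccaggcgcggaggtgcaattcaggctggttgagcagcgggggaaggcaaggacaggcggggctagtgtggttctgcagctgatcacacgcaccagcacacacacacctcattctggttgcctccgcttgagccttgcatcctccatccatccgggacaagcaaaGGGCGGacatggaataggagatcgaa
Kcnj5: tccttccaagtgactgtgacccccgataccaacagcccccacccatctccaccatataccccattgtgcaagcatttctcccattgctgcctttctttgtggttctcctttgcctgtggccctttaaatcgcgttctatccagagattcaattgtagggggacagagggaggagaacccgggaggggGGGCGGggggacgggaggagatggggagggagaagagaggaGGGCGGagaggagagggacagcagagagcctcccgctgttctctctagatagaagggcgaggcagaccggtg
Hcn2: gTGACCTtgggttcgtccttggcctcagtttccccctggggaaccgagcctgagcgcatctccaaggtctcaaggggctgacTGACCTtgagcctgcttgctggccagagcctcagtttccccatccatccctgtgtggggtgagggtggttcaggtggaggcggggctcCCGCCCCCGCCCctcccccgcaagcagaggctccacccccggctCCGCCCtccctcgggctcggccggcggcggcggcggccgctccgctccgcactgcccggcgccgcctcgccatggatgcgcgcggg
Hcn4: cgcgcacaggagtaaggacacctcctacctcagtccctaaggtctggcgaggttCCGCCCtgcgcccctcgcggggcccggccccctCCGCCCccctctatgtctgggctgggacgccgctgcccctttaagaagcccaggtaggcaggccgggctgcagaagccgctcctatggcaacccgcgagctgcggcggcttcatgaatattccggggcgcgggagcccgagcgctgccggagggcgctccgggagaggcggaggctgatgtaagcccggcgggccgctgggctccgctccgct
All 5 carry the GC box, which 13 of 21 promoters found for 20 tested members and 35.7% of 32851 promoters of this length hold, and GC content was 66.7%, 57.7%, 58.3%, 72.3% and 71.7% in that order, against a median of 64.3% over the member promoters and 52.7% over all promoters. *Hcn2* alone among these 5 has the AGGTCA half-site, at bases 2 and 83 of the printed run and in both places on the reverse strand. That half-site is in 16.3% of all promoters and in 1 of the 21 member promoters. TATAAA and AGATAA occur in none of the 5, and in 13.6% and 11.2% of all promoters. These matches describe the letters only.

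Of 11 listed inward rectifiers, 9 were tested. The groups were separate in 3 of them, all lower (33.3%, against 9.6% of all tested genes separate and lower), and their products carry the resting and the acetylcholine-gated current. *Kcnj2* (ENSMUSG00000041695, chromosome 11 from 111066164 to 111076821, GRCm38) encodes the main pore-forming subunit of the inward rectifier current that holds the ventricular resting potential. It had values of 829, 975 and 674 in the CtrlCre and 310, 327 and 522 in the Cpt1bcKO samples. Every Cpt1bcKO sample lay below every CtrlCre sample, with a log2 fold change of −1.12 ± 0.218 (s.e., limma adjusted *P* = 0.0335). The adjusted *P* value was 0.153 with 1 prior variance for all genes and 0.0792 on the CM marker scale, where the log2 fold change was −0.75. In 6 limma fits that each left out 1 sample it stayed below 0.05 only without Cpt1bcKO replicate 1 or 3, reaching up to 0.184, while the log2 fold change ran from −1.36 to −0.98. *Kcnj12*, whose product contributes to the same current, had 84, 60 and 58 in CtrlCre and 56, 45 and 71 in Cpt1bcKO samples. These groups overlapped, and the log2 fold change of −0.23 had a 95% interval from −0.79 to 0.33 in limma and ran from −0.40 to −0.065 in fits without 1 sample, being −0.065 without CtrlCre replicate 1 and −0.073 without Cpt1bcKO replicate 2. The log2 ratio of *Kcnj2* to *Kcnj12* in the same sample, which does not depend on scaling between samples, was 3.29, 4.0 and 3.52 in CtrlCre and 2.45, 2.83 and 2.86 in Cpt1bcKO samples. The ratio was thus lower in each Cpt1bcKO sample, by 0.89 on average (exact two-sided permutation test, *P* = 0.10, the smallest possible, and 0.10 after adjustment over 5 ratios).

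*Kcnj3* (chromosome 2 from 55435970 to 55598145) and *Kcnj5* (chromosome 9 from 32314707 to 32344350) encode the subunits that together form the acetylcholine-gated potassium channel. *Kcnj3* had 560, 642 and 587 in CtrlCre and 149, 199 and 396 in Cpt1bcKO samples, a log2 fold change of −1.38 ± 0.294 (s.e., limma adjusted *P* = 0.0491). For *Kcnj3* too the call held only without Cpt1bcKO replicate 1 or 3 among the fits without 1 sample (adjusted *P* up to 0.237 in limma, log2 fold change −1.78 to −1.08), and it was lost with 1 prior variance (0.178) and on the CM marker scale (0.0612, log2 fold change −1.02). *Kcnj5* had 480, 451 and 470 in CtrlCre and 173, 205 and 364 in Cpt1bcKO samples, a log2 fold change of −0.99 ± 0.244 (s.e., limma adjusted *P* = 0.0848), which was −0.63 on the CM marker scale. Its limma adjusted *P* value was 0.0150 with the replicate number as a block, although the numbers were not taken as pairs. Neither gene overlapped between the groups, and in both the third Cpt1bcKO sample was nearest to the controls. The control values of *Kcnj5* were tight, with an SD of 14.7 around a mean of 467 (*n* = 3), against an SD of 102 around 247 in Cpt1bcKO samples (*n* = 3). The log2 ratio of *Kcnj3* to *Kcnj5* was 0.22 to 0.51 in CtrlCre and −0.21 to 0.12 in Cpt1bcKO samples, a difference of −0.40 with groups that did not overlap (exact permutation test, *P* = 0.10). A non-coding gene on the opposite strand, *Gm26794*, shares 31.1% of the *Kcnj3* exon bases and had a mean value of only 9.67.

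The ATP-sensitive potassium channel, which opens when ATP is low, is built of pore and receptor subunits. The pore gene *Kcnj11* had 253, 171 and 225 in CtrlCre and 160, 156 and 211 in Cpt1bcKO samples, so the groups overlapped (log2 fold change −0.29, 95% interval −0.74 to 0.15 in limma, and −0.17 without CtrlCre replicate 1 and −0.45 without CtrlCre replicate 2). The other pore gene, *Kcnj8*, which is also prominent in pericytes and smooth muscle, had 16, 29 and 52 in CtrlCre and 35, 22 and 19 in Cpt1bcKO samples, with a log2 fold change of −0.24 and an interval from −1.19 to 0.71. The fold change of *Kcnj8* turned to 0.17 without CtrlCre replicate 3 and to 0.11 on the CM marker scale. *Abcc9*, a listed partner gene that encodes the regulatory sulfonylurea receptor, fell from 2839, 2867 and 2839 to 1579, 1597 and 1739, a log2 fold change of −0.80 ± 0.126 (s.e., limma adjusted *P* = 0.0123). *Abcc8*, the other receptor gene, had 177, 126 and 129 in CtrlCre and 107, 164 and 159 in Cpt1bcKO samples. The log2 ratio of *Kcnj11* to *Abcc9* was −4.06 to −3.48 in CtrlCre and −3.35 to −3.04 in Cpt1bcKO samples (exact permutation test, *P* = 0.10).

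*Kcnj14*, an inward rectifier known mainly from the nervous system, stood apart by its spread. It was at 0, 48 and 6 in CtrlCre and at 76, 85 and 12 in Cpt1bcKO samples, so the groups overlapped although the unadjusted *P* value in limma was 0.0494 (log2 fold change 2.66 ± 1.19 s.e., adjusted *P* = 0.358). Its log2 fold change was 1.25 without CtrlCre replicate 1 and 4.06 without CtrlCre replicate 2. *Kcnj13* and *Kcnj15* stayed between 1 and 26 with intervals that include 0, and *Kcnj13* shares 49.1% of its exon bases with *Gigyf2* on the opposite strand, which had a mean value of 253.

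Among the Hcn genes, *Hcn4* had lower and *Hcn2* higher values in Cpt1bcKO CMs, without reaching an adjusted *P* value below 0.05 on the deposited scale. *Hcn4* (chromosome 9 from 58823412 to 58863175), the main isoform of the sinoatrial node, had 22, 24 and 21 in CtrlCre and 6, 1 and 18 in Cpt1bcKO samples. The controls were tight whereas the Cpt1bcKO samples were spread, and the log2 fold change was −1.86 ± 0.707 (s.e., limma, unadjusted *P* = 0.0246, adjusted *P* = 0.270). Without Cpt1bcKO replicate 2, which had the value of 1, it was −1.01 (limma unadjusted *P* = 0.0733), and over all fits without 1 sample it ran from −2.64 to −1.01. *Hcn2* (chromosome 10 from 79716634 to 79736108), a ventricular isoform, had 125, 141 and 95 in CtrlCre and 188, 168 and 179 in Cpt1bcKO samples. Each Cpt1bcKO sample was above all controls, with a log2 fold change of 0.58 ± 0.191 (s.e., limma, unadjusted *P* = 0.0120, adjusted *P* = 0.201). On the CM marker scale its log2 fold change was 0.94 (limma adjusted *P* = 0.0498).

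Within each sample, the log2 ratio of *Hcn2* to *Hcn4* was 2.45, 2.51 and 2.13 in CtrlCre and 4.75, 6.40 and 3.24 in Cpt1bcKO samples. The ratio was higher in every Cpt1bcKO sample than in any control (exact permutation test, *P* = 0.10). This outcome was fixed, because both genes were already separate between the groups in opposite directions, so the test adds nothing to them. The ratio of 6.40 rests on the *Hcn4* value of 1. The values of *Hcn4* in Cpt1bcKO samples rest on few reads, since a value of 10 corresponds to 7.73 to 14.7 reads in these libraries.

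**Figure D2:**
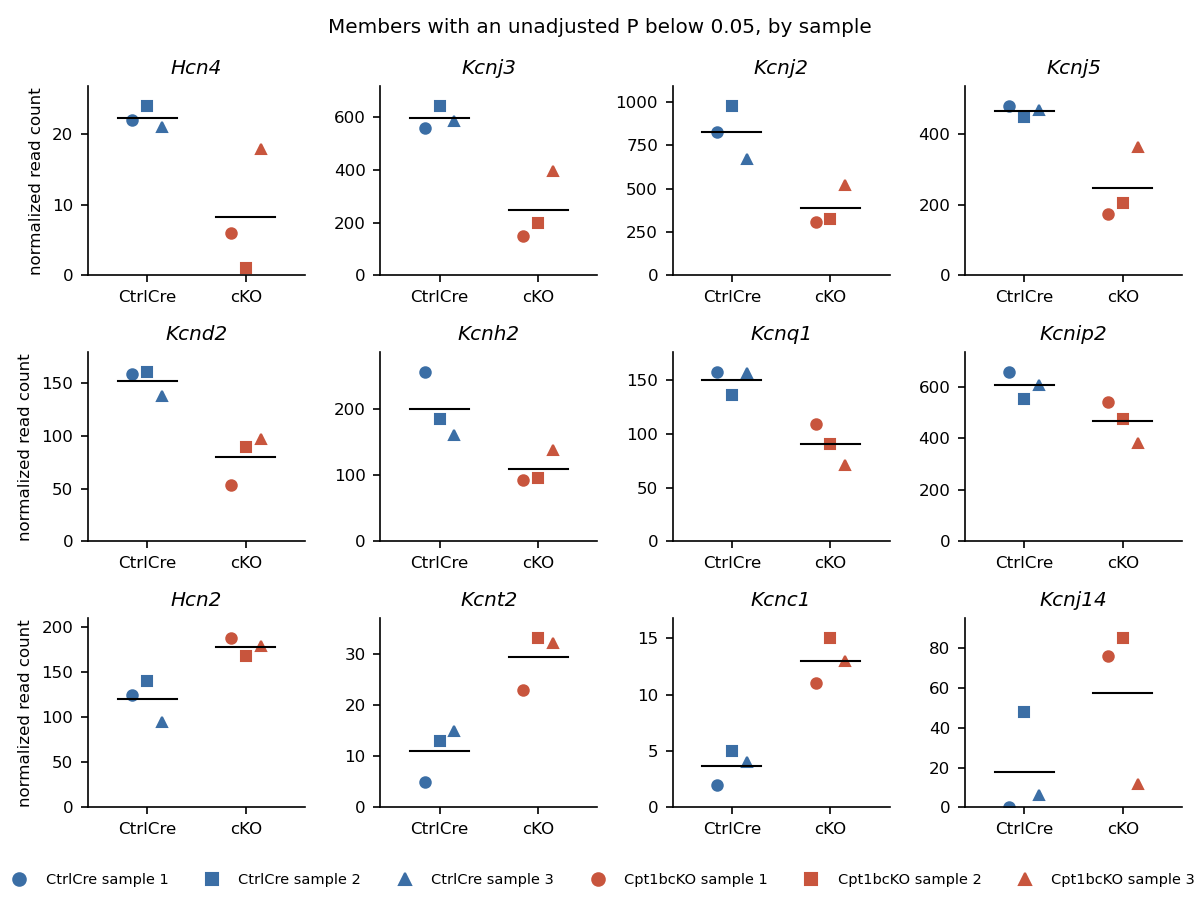
Normalized read count (y axis, from 0, with its own scale for each gene) of 12 members with an unadjusted *P* value below 0.05 in CtrlCre and Cpt1bcKO (cKO) samples. Marker shapes stand for the sample number and black lines for the mean of 3 samples. In *Kcnj2*, *Kcnj3*, *Kcnj5*, *Kcnd2*, *Kcnh2* and *Hcn4* the Cpt1bcKO sample nearest to the controls is sample 3, whereas in *Kcnip2* and *Kcnq1* sample 3 is the farthest.

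Of 19 listed voltage-gated genes, 13 were tested and 9 of these were lower (8 on the CM marker scale), and the median of their log2 fold changes was −0.44 (−0.082 on the CM marker scale). In limma, 0 of them had an adjusted *P* value below 0.05 and 6 an unadjusted one. Leaving out the 1 gene that reached 10 in Cpt1bcKO samples only, 4 of 12 were lower and 1 was higher with an unadjusted *P* value below 0.05 (7.22% and 6.66% of all tested genes), and on the CM marker scale 2 were lower and 2 higher (1.69% and 22.5% of all tested genes). *Kcnd2* and *Kcnd3* encode the pore of the fast transient outward current, which shapes early repolarization in the mouse ventricle. *Kcnd2* (chromosome 6 from 21215503 to 21729805) had 158, 160 and 138 in CtrlCre and 53, 89 and 97 in Cpt1bcKO samples. The groups were separate, with a log2 fold change of −0.97 ± 0.241 (s.e., limma, unadjusted *P* = 0.00232, adjusted *P* = 0.0892), which was −0.61 on the CM marker scale. The limma adjusted *P* value of *Kcnd2* was 0.0306 with the replicate number as a block. *Kcnd3* had 87, 133 and 115 in CtrlCre and 60, 104 and 84 in Cpt1bcKO samples, with overlapping groups and an interval of the log2 fold change from −0.999 to 0.11. The log2 ratio of *Kcnd2* to *Kcnd3* was 0.26 to 0.85 in CtrlCre and −0.22 to 0.21 in Cpt1bcKO samples (exact permutation test, *P* = 0.10). *Kcna4*, the pore of the slow transient outward current, had 42, 14 and 61 in CtrlCre and 3, 16 and 31 in Cpt1bcKO samples, and its groups overlapped.

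*Kcnh2* (chromosome 5 from 24319589 to 24351604), the pore of the rapid component, had 256, 185 and 161 in CtrlCre and 93, 96 and 138 in Cpt1bcKO samples, a log2 fold change of −0.87 ± 0.229 (s.e., limma, unadjusted *P* = 0.00331, adjusted *P* = 0.108). *Kcnq1* (chromosome 7 from 143107254 to 143427042), the pore of the slow component, had 157, 136 and 156 in CtrlCre and 109, 90 and 71 in Cpt1bcKO samples, a log2 fold change of −0.75 ± 0.204 (s.e., limma, unadjusted *P* = 0.00414, adjusted *P* = 0.123). In both genes every Cpt1bcKO sample was below every control, without an adjusted *P* value below 0.05. On the CM marker scale the log2 fold changes were −0.51 for *Kcnh2* (limma unadjusted *P* = 0.0386) and −0.38 for *Kcnq1* (limma unadjusted *P* = 0.158). The antisense RNA *Kcnq1ot1*, which shares 121 exon bases (3.0%) with *Kcnq1* on the opposite strand, was at 354, 913 and 696 in CtrlCre and 408, 1207 and 1096 in Cpt1bcKO samples, with overlapping groups. *Kcne1*, the accessory subunit that slows *Kcnq1* channels, was at 54, 12 and 22 in CtrlCre and 37, 16 and 16 in Cpt1bcKO samples, with no separation.

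Modifier subunits that do not form channels alone are encoded by *Kcng2* and *Kcnv2*. *Kcng2* had 296, 322 and 260 in CtrlCre and 199, 276 and 295 in Cpt1bcKO samples, with an interval of the log2 fold change from −0.62 to 0.21. *Kcnv2* had means of 60.7 in CtrlCre and 39.7 in Cpt1bcKO samples, but the groups overlapped and the unadjusted *P* value in limma was 0.0549. The gene *Kcna5*, which encodes the pore of an ultrarapid delayed rectifier, had 12, 22 and 63 in CtrlCre and 55, 57 and 34 in Cpt1bcKO samples, a log2 fold change of 0.86 with an interval from −0.26 to 1.97, which was 0.34 without CtrlCre replicate 1 and 1.49 without CtrlCre replicate 3. Levels of *Kcna2* and *Kcnh7*, a pair known mainly from neurons, ran from 1 to 25 and overlapped.

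*Kcnc1*, known from fast-spiking neurons, had 2, 5 and 4 in CtrlCre and 11, 15 and 13 in Cpt1bcKO samples. It passed the filter through the Cpt1bcKO samples, in which alone it reached 10, so its direction was set by the filter and its values are a description.

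In the two-pore subfamily, only *Kcnk3* of 6 listed genes was tested. It encodes a background channel sensitive to extracellular acid and was the steadiest of the abundant members, with 794, 806 and 789 in CtrlCre and 758, 743 and 735 in Cpt1bcKO samples. These groups did not overlap, with SDs of 8.74 in CtrlCre and 11.7 in Cpt1bcKO samples, and the log2 fold change was −0.095 (95% interval −0.37 to 0.18, limma adjusted *P* = 0.785), which turned to 0.27 on the CM marker scale. The mechanosensitive *Kcnk2* stayed at 0 to 5 in all samples and was not tested.

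Among 4 listed calcium- or sodium-activated genes, 3 were tested. *Kcnn2*, of the small-conductance calcium-activated channels, had 51, 36 and 67 in CtrlCre and 27, 32 and 54 in Cpt1bcKO samples, with overlapping groups and an interval from −1.18 to 0.27. Its relative *Kcnn1* had 43 to 46 in CtrlCre and 41 to 56 in Cpt1bcKO samples. *Kcnt2*, a sodium-activated channel gene, was higher, with 5, 13 and 15 in CtrlCre and 23, 33 and 32 in Cpt1bcKO samples (log2 fold change 1.44 ± 0.437 s.e., limma, unadjusted *P* = 0.00770, adjusted *P* = 0.165). The large-conductance channel gene *Kcnma1*, typical of smooth muscle, stayed at 0 to 5.

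Of 8 listed accessory genes, *Kcnip2* and *Kcne1* were tested. *Kcnip2* (chromosome 19 from 45792346 to 45816061) encodes the calcium-binding partner of the *Kcnd2* and *Kcnd3* channels. It had 657, 553 and 609 in CtrlCre and 540, 477 and 384 in Cpt1bcKO samples. All Cpt1bcKO samples were below the controls, although the highest of them came within 13 of the lowest control, and the log2 fold change was −0.39 (limma, unadjusted *P* = 0.0386, adjusted *P* = 0.325). It was −0.25 without Cpt1bcKO replicate 3, −0.27 when samples were scaled to their sum without rRNA and mitochondrial genes and −0.022 on the CM marker scale (limma unadjusted *P* = 0.15, 0.138 and 0.921).

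Levels of different genes were set side by side per kb of exon. In CtrlCre CMs *Kcnk3* was highest, at 200.3 ± 2.20 normalized reads per kb (SD, *n* = 3), followed by *Kcnip2* at 174 ± 14.97, *Kcnj2* at 152 ± 27.6, *Kcnj3* at 114 ± 8.01, *Kcnj5* at 99.7 ± 3.14 and *Kcng2* at 97.9 ± 10.4. The samples of *Kcnip2* and *Kcnj2* overlapped on this scale. Those of *Kcng2* overlapped with those of *Kcnj5* and of *Kcnj3*, so the order within these sets is not settled. In Cpt1bcKO CMs *Kcnk3* at 187 ± 2.94 and *Kcnip2* at 134 ± 22.6 kept ranks 1 and 2. *Kcnj3* went from rank 4 to rank 8, at 47.6 ± 25.0, and *Hcn2* from rank 9 to rank 5, at 55.8 ± 3.14, but these ranks are not settled in either group. In CtrlCre CMs the samples of *Hcn2* overlapped with those of *Kcnh2* and *Kcnq1*. The samples of *Hcn2*, *Kcnj5*, *Kcnj11* and *Kcnj3*, which hold ranks 5 to 8 in Cpt1bcKO CMs, overlapped there. Those of *Hcn2* also overlapped there with those of *Kcnj2*, which holds rank 4.

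**Figure D3:**
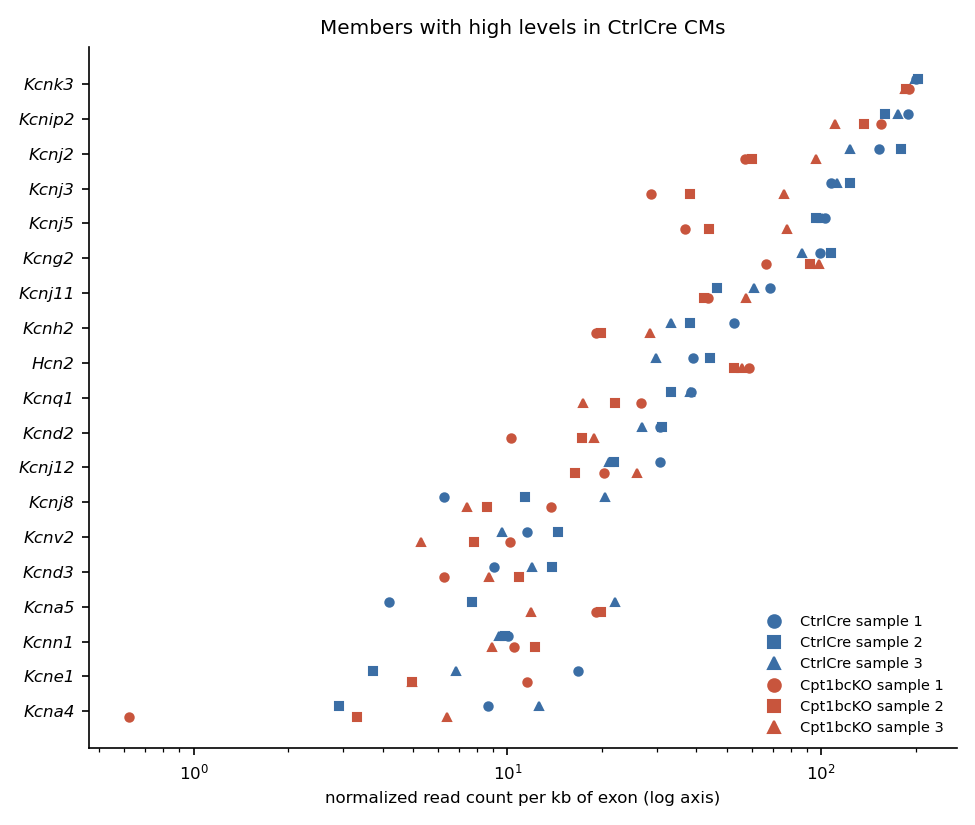
Normalized read count per kb of exon (x axis, log scale) of 19 members with high means in CtrlCre CMs (y axis), with 1 point for each sample. The Cpt1bcKO points of *Kcnj2*, *Kcnj3* and *Kcnj5* lie to the left of all CtrlCre points, and those of *Hcn2* to the right.

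**Figure D4:**
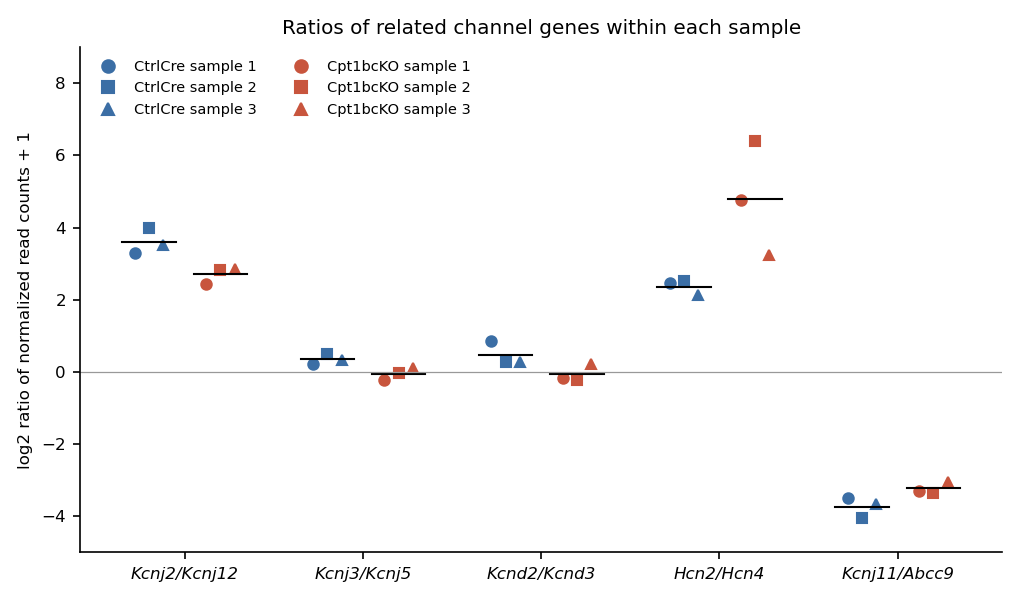
Log2 ratio (y axis, each value + 1) of 5 pairs of related genes (x axis) in the 3 CtrlCre and 3 Cpt1bcKO samples, with black lines for the means. The groups do not overlap in any of the 5 pairs, and the mean of *Hcn2*/*Hcn4* goes from 2.36 to 4.80. The pairs were chosen after the data had been seen, and each holds a gene whose own groups were separate. The share of other gene pairs that separate was not computed, so the count is a description only.

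The 20 members below the filter had values of 0 to 15 in all samples. They included 6 voltage-gated, 6 accessory, 5 two-pore, 2 inward rectifier and 1 calcium-activated gene. Their changes could not be measured with useful precision at this depth.

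Partners outside the symbol rule were taken from a list of 29 genes for regulatory subunits, anchors, the muscarinic pathway that opens *Kcnj3* and *Kcnj5* channels, transcription factors and the sodium pump. Of these, 23 were tested, 17 lower and 6 higher, and their log2 fold changes had a median of −0.27, which turned to 0.091 on the CM marker scale, with 9 lower and 14 higher. In limma on the deposited scale, 3 had an adjusted *P* value below 0.05, all lower (against 0.906% of all tested genes), and these were *Abcc9*, *Chrm2*, the muscarinic receptor of CMs, and *Rgs6*, which speeds the closing of the acetylcholine-gated channel. Partners with an unadjusted *P* value below 0.05 numbered 8, all lower, which is 34.8% of the tested partners against 13.9% of all tested genes in either direction. On the CM marker scale 4 lower and 5 higher partners had one, where 1.69% and 22.5% of all tested genes did. *Rgs6* had 93, 66 and 70 in CtrlCre and 26, 22 and 18 in Cpt1bcKO samples (log2 fold change −1.75, limma adjusted *P* = 0.0107). *Chrm2* had 2252, 1971 and 1615 in CtrlCre and 393, 343 and 408 in Cpt1bcKO samples. *Irx3* and *Irx5*, transcription factors that act on repolarization genes, had 69 to 136 and 29 to 69 in CtrlCre and 23 to 57 and 16 to 27 in Cpt1bcKO samples, with unadjusted *P* values of 0.00199 and 0.0174 and adjusted ones of 0.0820 and 0.231 in limma. The pump subunit gene *Atp1b1* had a log2 fold change of −0.024 with a 95% interval from −0.37 to 0.32 in limma.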

How the data were processed

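RNA of isolated adult CMs was sequenced in 3 CtrlCre and 3 Cpt1bcKO samples. According to the study's methods and the processing notes, the authors trimmed reads (Trimmomatic 0.36), aligned them to mm10 (GRCm38.p5) with STAR 2.5.4b, counted them on exons with featureCounts 1.6.0, leaving out reads on several genes or regions, and ran DESeq2 1.14.1. The strand setting and the annotation release are not given in the sources used here. The deposited score of each gene is a read count that the authors divided by a factor for the sample and rounded to whole numbers, so it is no raw count, and small differences at low values are imprecise. The fold changes, *P* values and group means computed by the authors were not used.

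Because the values are not raw counts, genes were tested with limma 3.58.1 (R 4.3.3) on log2(value + 1) with a trend of the prior variance, in genes that reached 10 in 3 or more samples, adjusted by Benjamini–Hochberg over all of them, at a threshold of 0.05. Ratios were compared with exact two-sided permutation tests. The worth of 1 read was estimated from the spacing of low values, and exon lengths and overlaps come from GENCODE vM21, in which all 51 members were found and 35 had the same start and end. Of 31 tested members, 20 had a promoter in the RefSeq table. Both the fit and the spacing estimate were tested on simulated data. Figures were drawn with matplotlib 3.10.9 in Python 3.11.15.

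Values in every sample are given for members with an unadjusted *P* value below 0.05, a mean of at least 100 or a known role in a mouse cardiac current. *Kcna2*, *Kcnh7*, *Kcnj13*, *Kcnj15*, *Kcnn1* and *Kcnv2* were added after their values had been seen. Some genes are counted but not reported by name here. The members and lists were chosen with earlier results of these data known. Alternatives were other scalings, filters and pseudocounts, 1 prior variance for all genes, a block for the replicate number and leaving out each sample. Scaling to CM markers, the samples numbered 2 and 3 alone, and the ratios were chosen after the data had been seen.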

Additional observations from a re-analysis of the deposited data

How the results depend on the processing

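Replicate numbers are shared by the groups, but the labels do not name them as pairs, so the main fit has no block. Deviations of same-numbered samples from their group means had correlations across genes of 0.38, 0.25 and 0.068. For differently numbered samples they ran from −0.33 to 0.15, and Cpt1bcKO replicate 3 correlated best with CtrlCre replicate 2 (0.15). *Xist* was also high in the samples numbered 1 of both groups only. What the numbers share was not tested. With the replicate number as a block, 7 members were called, all lower, the added ones being *Kcnj5* (adjusted *P* = 0.0150), *Kcnd2* (0.0306), *Kcnq1* (0.0432) and *Kcnh2* (0.0486), and calls over all genes went from 178 to 603. With 1 prior variance for all genes, 0 members were called in limma (12 at an unadjusted *P* value below 0.05, 41 calls over all genes), and *Cpt1b*, at a log2 fold change of −2.27, had an adjusted *P* value of 0.0563. The samples numbered 2 and 3 alone also gave 0 calls (15 unadjusted, 239 over all genes), and fits without 1 sample gave 0 to 4, with 0 when any CtrlCre replicate or Cpt1bcKO replicate 2 was left out (12 to 14 unadjusted), where calls over all genes were 86, 78, 68 and 42. *Kcnj5* was called without Cpt1bcKO replicate 3 (adjusted *P* = 0.00745) and *Kcnq1* without Cpt1bcKO replicate 1 (0.0480). When every sample had to reach 10, 20 members were tested, 17 lower and 3 higher, and 9 had an unadjusted *P* value below 0.05 in limma. Of these 9, 8 were lower and 1, *Hcn2*, was higher, so the other higher members with such a value did not reach 10 in every sample. The share of all genes with an unadjusted *P* value below 0.05 was not computed under this filter. *Kcnj3* lost its call when samples were scaled to their sum without rRNA and mitochondrial genes (adjusted *P* = 0.0600 in limma) and with a pseudocount of 0.5 (0.0506). Without rRNA and mitochondrial genes in the sum, *Kcnk3* was at a log2 fold change of 0.016. Scaled to CM markers, the median of the members was 0.069, which is 0.29 below that of all genes, as with the deposited scaling, and *Kcne1* (0.16), *Kcng2* (0.16), *Kcnj11* (0.069), *Kcnj12* (0.13), *Kcnj8* (0.11) and *Kcnk3* (0.27) turned positive. With 1 sample left out at a time, *Kcne1* ranged from −0.68 to 0.36 and *Kcnj8* from −0.65 to 0.17. The causes were not tested.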
